A study of Mus musculus with 2 samples.

Results

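The inflammasome is the cytosolic machine by which phagocytes turn MSU crystals into active IL-1β. This account covers 10 genes of that machine: the sensors Nlrp3, Nlrc4, Aim2 and Mefv, the adaptor Pycard, the NLRP3 partners Nek7 and Txnip, the caspases Casp1 and Casp4, and the pore protein Gsdmd. Members were taken by symbol, and every probe set that the platform annotation gives to 1 of them alone was used. A probe set is a group of short oligonucleotides that reads out a transcript. These came to 14 of the 45101 probe sets and covered 9 of the 10 genes. Nlrc4 was not analysed here.

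The samples were dissected air pouch membranes of female Balb/C mice aged 6 to 8 weeks. Sterile air, here 2 ml, was injected under the skin of the back, where it forms a pouch whose lining resembles synovium. On day 7 the control pouches were injected with 1 ml PBS and the MSU pouches with 2 mg MSU crystals in 1 ml PBS, and the membranes were taken 9 h later (the study's methods give another air volume and an earlier injection day). RNA of the 3 mice of a group was pooled and hybridized to 1 Affymetrix array, so there were 2 arrays in all, no replicates and no test between the groups. All values describe these 2 pools, and the lavage that preceded dissection had washed loose leukocytes out of the pouch lumen.

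In resting macrophages the NLRP3 inflammasome is kept low and needs a priming signal, classically through Toll-like receptors and NF-κB, before a trigger such as crystals, ATP or pore-forming toxins sets off assembly. The sensor then recruits the adaptor ASC (Pycard) and pro-caspase-1, which cleaves pro-IL-1β, pro-IL-18 and gasdermin D. Caspase-11 (Casp4 in the mouse) senses cytosolic lipopolysaccharide and cleaves gasdermin D without a sensor platform. MSU crystals are a classical NLRP3 trigger. The arrays measure mRNA only, and neither cleavage nor assembly of these proteins was measured.

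The sensors Nlrp3 and Mefv were higher in the MSU pool, the adaptor Pycard and Casp1 had lower signals, and the remaining genes lay in between. Of the 8 members measured, 2 reached 2-fold higher, beside 3.70% of all 11155 genes measured. No member (0 of 8) reached 2-fold lower, beside 4.29% of those genes. The log2 ratio of MSU over control had a median of 0.07 in the 8 members and of -0.05 in the 10045 genes with a fold. By sign, 4 members lay above 0 and 4 below it. The middle of the list thus lay near that of all genes, while its range was wide, from -0.57 for Casp1 to 1.60 for Mefv.

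Measured means here that at least 1 array reached its detection floor, so that the ratio or a limit for it can be stated. Each floor was placed so that the number of probe sets at or over it equals the number the study called detected, which gave 64.6 for the control array and 74.1 for the MSU array. A fold is the ratio of the signals where both arrays reached their floors. Where a gene has several probe sets, the brightest stands for it. As a scale for the scatter between probe sets, the log2 ratios that different probe sets gave for a gene had a pooled SD of 0.33 over 4002 genes. All come from the same 2 arrays, so this SD holds no variation between mice or between repeated arrays. Signals of different probe sets are not comparable as levels, so each was compared with itself across the pools. Where signals of a marker list are summed below, the brightest probe sets weigh most.

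Nlrp3, the sensor through which MSU crystals act in macrophages, gave a signal of 272 after PBS and of 800 after MSU crystals. It was 2.94-fold higher, a log2 ratio of 1.55, which is 4.73 times the SD between probe sets. Its signal was 4.21 times the floor in the control pool, so its mRNA was detected in membranes given PBS alone. Among the genes with a fold it ranked 142 from the top, with 1.41% of genes at or above it. Only 1 probe set reads Nlrp3, so no other probe set of the gene bears on this value.

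Mefv encodes pyrin, an inflammasome sensor that is best known from neutrophils and monocytes and from familial Mediterranean fever. Its signal was 149 after PBS and 450 after MSU crystals. Mefv was 3.02-fold higher, with a log2 ratio of 1.60 and rank 135, next to Nlrp3. Their log2 ratios differed by 0.04, well inside the SD between probe sets. Like Nlrp3, it has a single probe set, and both exceeded the range of -1.16 to 1.19 that held the middle 95% of genes with a fold.

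Aim2, a sensor of cytosolic double-stranded DNA, lay below the floor in both pools, with signals of 4.78 (control) and 14.9 (MSU). The plain ratio of 3.11 between them is not a fold, since these signals were only 0.074 and 0.20 of their floors. Aim2 mRNA was therefore not detectable in either pool at this sensitivity.

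Pycard, the adaptor ASC that links pyrin-domain sensors to caspase-1, gave 271 after PBS and 191 after MSU crystals on its brightest probe set. This is 1.42-fold lower, a log2 ratio of -0.51. Both other Pycard probe sets lay below the floors, at 20.6 and 28.0 and at 52.4 and 55.0, with plain ratios of 1.36 and 1.05 in the other direction. The lower value thus rests on 1 probe set.

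The NLRP3 partners differed little between the pools. Nek7, a kinase that binds NLRP3 and licenses its assembly, had signals of 740 and 576 on its brightest probe set and was 1.29-fold lower. A further Nek7 probe set gave 585 and 512, and the last gave 86.5 and 80.6, close to the floors. The 3 Nek7 log2 ratios lay between -0.36 and -0.10, all below 0.

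Txnip binds thioredoxin, has been described as an NLRP3 ligand under oxidative stress, and is a classical target of glucose-sensing transcription factors. Its brighter probe set gave 2380 after PBS and 2122 after MSU crystals, 1.12-fold lower, and its other probe set gave 1110 and 1092, a plain ratio of 0.984. Both log2 ratios, -0.17 and -0.02, were smaller than the SD between probe sets. Its control signal was 36.8 times the floor, so a change of 2-fold in either direction would have been well within range.

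The inflammatory caspases went in opposite directions. Casp1, the protease that activates IL-1β and IL-18, gave 171 after PBS and 115 after MSU crystals, 1.48-fold lower, a log2 ratio of -0.57. Casp4 (caspase-11), the lipopolysaccharide-binding caspase of the non-canonical route, gave 236 and 377, 1.60-fold higher, a log2 ratio of 0.68. Neither reached 2-fold. Between the pools the balance of these 2 probe sets moved by 1.24 on the log2 scale, or 2.37-fold, against an SD of 0.46 for a difference of a pair of probe sets. Such a difference between genes on the same arrays is unchanged when each array is multiplied by 1 factor, but other processing can change it. With the detection floor added to each signal, the log2 ratios lay closer together, at 0.59 for Casp4 and -0.31 for Casp1. The MSU signal of Casp1 was only 1.56 times the floor. In RefSeq these genes are neighbours, in the order Casp1, Casp4, Casp12. Casp12, an inflammatory caspase of the same cluster, was 1.15-fold lower on its brighter probe set (301 and 261), and its other probe set gave a ratio of 0.624, a log2 ratio of -0.68.

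Gsdmd, the pore protein cleaved by both caspases, gave 382 after PBS and 476 after MSU crystals, 1.24-fold higher, a log2 ratio of 0.31, which is within the SD between probe sets. Its direction turned when the arrays were scaled on the hybridization spike-ins, to a log2 ratio of -0.14.

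The ratios of Nlrp3 and Mefv, the sensors with a fold among the members, can be set against those of the adaptor and caspase-1. Nlrp3 exceeded Pycard by 2.06 and Casp1 by 2.12 in log2 ratio, or 4.18- and 4.35-fold. Mefv exceeded them by 2.11 and 2.16. Nlrp3 and Casp4 differed by less, 0.88. Of the 8 members, 6 lay inside the middle 95% of all genes, 2 above it and 0 below it.

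**Figure D1:**
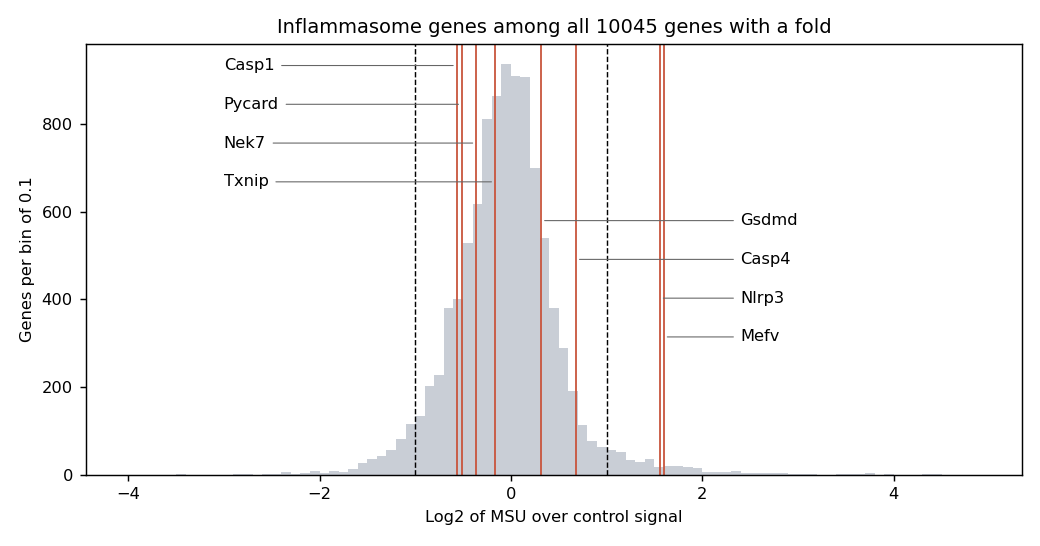
Number of genes (y axis) per bin of 0.1 along the log2 ratio of the MSU signal to the control signal (x axis), over the 10045 genes with a fold, 1 array per pool. Red lines are the 8 inflammasome members with a fold and dashed lines 2-fold. Nlrp3 (1.55) and Mefv (1.60) lie in the upper tail, and Casp1 (-0.57) and Pycard (-0.51) on the lower shoulder.

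Proximal promoters are shown for Nlrp3, the crystal sensor, and for the neighbours Casp4 and Casp1, whose ratios lay on opposite sides of 1. Each is the stretch of 250 bases just upstream of a RefSeq transcript start (GRCm38.p6), written 5′ to 3′ on the plus strand, which is that of each gene. Nlrp3 is chr11:59541319-59541568, upstream of the first of its 2 starts, Casp4 is chr9:5308599-5308848 and Casp1 is chr9:5298267-5298516. Capitals mark matches to any of 7 motifs on either strand, which the next paragraph spells out.
Nlrp3: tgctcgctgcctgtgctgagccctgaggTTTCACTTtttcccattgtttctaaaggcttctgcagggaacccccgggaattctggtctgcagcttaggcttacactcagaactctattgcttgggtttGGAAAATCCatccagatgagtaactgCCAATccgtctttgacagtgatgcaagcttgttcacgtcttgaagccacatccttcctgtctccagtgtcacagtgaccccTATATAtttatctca
Casp4: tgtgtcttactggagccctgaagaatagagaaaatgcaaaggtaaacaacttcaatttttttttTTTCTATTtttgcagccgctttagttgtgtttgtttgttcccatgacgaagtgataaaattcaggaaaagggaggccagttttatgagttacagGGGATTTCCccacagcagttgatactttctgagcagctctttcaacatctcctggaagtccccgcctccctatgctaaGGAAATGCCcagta
Casp1: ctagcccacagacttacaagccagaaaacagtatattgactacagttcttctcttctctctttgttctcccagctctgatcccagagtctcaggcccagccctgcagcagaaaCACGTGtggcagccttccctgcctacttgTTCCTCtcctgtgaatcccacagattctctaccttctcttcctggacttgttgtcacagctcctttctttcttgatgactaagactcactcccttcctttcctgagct

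The NF-κB letters GGNNTTTCC occur in 4.93% of the 32851 RefSeq promoter windows of this length, and among the 11 windows of 9 members (Nlrc4 among them) they were found in 4, both of Nlrp3 and both of Casp4, which overlap each other. In Casp4 they lie 92 to 84 bases and 14 to 6 bases before the start. In Nlrp3 they lie 122 to 114 bases before the upstream start and 94 to 86 bases before the downstream one, which lies inside the gene (chr11:59542436-59542685, not printed). With 1 further G required in front, 1.41% of windows match and Casp4 is the only such member, so the matches in Nlrp3 depend on the letters chosen. The interferon regulatory factor letters AANNGAAA, in 21.3% of windows, were found in Nlrp3, Casp4 and Pycard, and in the downstream Nlrp3 window they overlap the NF-κB letters. The ETS core GAGGAA is in 23.3% of windows. It was found in the downstream Nlrp3 window and in those of Casp1, Pycard and Aim2. The Casp1 window also holds the E-box CACGTG, which 6.02% of windows hold. The upstream Nlrp3 window has a CCAAT box, as 33.8% of windows have, and a TATANA element, as 22.6% have, 15 to 10 bases before the start. Both are also in the Txnip window, and the CCAAT box in that of Aim2. The AP-1 letters TGANTCA, in 6.75% of windows, were in no member's window, and the windows of Mefv, Nek7 and Nlrc4 hold none of the 7 motifs, which says only that these letters are not there. Matches describe the sequence and do not show binding, and the motifs were chosen after ratios and sequences had been seen.

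Of 12 other inflammasome sensors on the list, 8 had a probe set and 5 were measured. Among these, 1 reached 2-fold higher and none 2-fold lower, beside 3.70% and 4.29% of all genes. The same shares stand beside every list count below. Naip2, of the NAIP family that hands bacterial proteins to NLRC4, went from 73.0 to 174, 2.39-fold higher, from a control signal near the floor. Its paralogs Naip5 and Naip6 were 1.28- and 1.13-fold higher, and these near-identical genes may share probes. The interferon-inducible DNA sensor Ifi204 was 1.72-fold higher and the peptidoglycan sensor Nod1 1.03-fold lower. Nlrp6, Nlrp10 and Nlrp12 were below the floor in both pools, like Aim2.

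The largest ratio in the related lists was that of a product of the pathway. Of 7 interleukin-1 family genes measured, 6 reached 2-fold higher and none 2-fold lower. The caspase-1 substrate Il1b gave 328 after PBS and 3594 after MSU crystals, 10.9-fold higher. Il18, the other caspase-1 substrate, gave 190 and 178, 1.07-fold lower. Il1a, not above the floor after PBS, was at least 4.41-fold higher, and the alarmin Il33 was 3.79-fold higher. The antagonist Il1rn (5.42-fold), the decoy receptor Il1r2 (3.58-fold) and the signalling receptor Il1r1 (2.70-fold) were higher as well. Il18bp, which neutralizes IL-18, gave 73.3 and 8.41 and has no fold or bound, since its control signal did not exceed the MSU floor.

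Priming genes were higher as a group. Of 8 measured, 6 reached 2-fold higher and none 2-fold lower, and their log2 ratios had a median of 1.24. The lipopolysaccharide co-receptor Cd14 was 6.70-fold higher, the IκB family member Nfkbiz 3.57-fold, Tlr2 2.75-fold, Tlr4 2.36-fold (1.76-fold on its other probe set) and the kinase Irak2 2.02-fold. Tnf was at least 4.51-fold higher. The adaptor Myd88 was 1.59-fold higher and the kinase Irak1 1.12-fold, both short of 2-fold. The 4 Irak1 probe sets had ratios from 0.571 to 1.12.

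None of 7 measured cell death genes passed 2-fold in either direction, and few of all genes did (3.70% higher and 4.29% lower). The necroptosis kinase Ripk3 was 1.53-fold higher, the membrane rupture protein Ninj1 1.42-fold higher and the death receptor adaptor Fadd 1.24-fold higher, whereas Casp8, the apical caspase of death receptors, was 1.36-fold lower. Gasdermin E (Gsdme) was 1.10-fold lower. None of the 12 measured triggers and regulators passed 2-fold. In lists this short, such counts do not set the genes apart from all genes. Among them were the kinase Syk at 1.66-fold higher, the channel Panx1 at 1.61-fold lower, the chaperone Hsp90aa1 at 1.39-fold higher and Card14 at no less than 1.38-fold higher. The ATP receptor P2rx7 was 1.06-fold lower, with a ratio of 0.748 on its other probe set. For cathepsin B (Ctsb), which leaks from lysosomes damaged by crystals, the 5 probe sets had ratios from 0.713 to 1.76, in both directions.

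None of 8 measured genes of the non-canonical and interferon route passed 2-fold, beside 3.70% of all genes higher and 4.29% lower. Their log2 ratios had a median of -0.02. The transcription factors Irf8, Irf1 and Irf7 were 1.35-, 1.27- and 1.02-fold higher, the guanylate-binding protein Gbp7 1.18-fold higher and the GTPase Irgm1 1.22-fold lower. Casp4 is itself an interferon-inducible gene in macrophages. Of 16 measured interferon-stimulated genes, 5 reached 2-fold lower and 1 reached 2-fold higher, beside 4.29% and 3.70% of all genes. Their log2 ratios had a median of -0.72. Ifit3 was 3.54-fold lower and Cxcl10 2.59-fold lower, Rsad2 was 1.71-fold lower, and Cxcl9 was at least 2.85-fold higher.

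Of 7 measured genes on the list of pyrin regulators and their relatives, 1 (Pstpip2) reached 2-fold higher and none 2-fold lower. Pstpip1, which binds pyrin, was 1.23-fold higher. Its relative Pstpip2, whose loss causes autoinflammatory bone disease in mice, was 2.13-fold higher on the brighter probe set and 1.51-fold on the other. The GTPase Rhoa was 1.11-fold lower, the kinase Pkn2 1.08-fold higher and the actin regulator Wdr1 1.09-fold higher. The 14-3-3 proteins that hold pyrin inactive, Ywhae and Ywhag, were 1.10-fold lower and 1.11-fold higher on their brightest probe sets. Over all probe sets the ratios ran from 0.912 to 1.35 for Ywhae (4 probe sets) and from 1.11 to 2.45 for Ywhag (3 probe sets).

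Beside Txnip, the thioredoxin genes and glucose-responsive genes had higher signals for 7 of 8 measured, and 1 reached 2-fold higher. Thioredoxin reductase Txnrd1 was 1.94-fold higher on its brighter probe set and 2.69-fold on the other, thioredoxin Txn1 1.10-fold higher and mitochondrial Txn2 1.18-fold lower. Arrdc4, the arrestin closest to Txnip in its glucose regulation, had signals of 115 and 216, 1.87-fold higher, and 1.89-fold on its other probe set. Arrdc4 was thus higher on both probe sets, while the Txnip log2 ratios of -0.17 and -0.02 were smaller than the SD between probe sets. The glucose transporter Slc2a1 was 4.82-fold higher, Arrdc3 1.48-fold, and the regulators Mlxip and Mlx 1.13- and 1.06-fold.

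**Figure D2:**
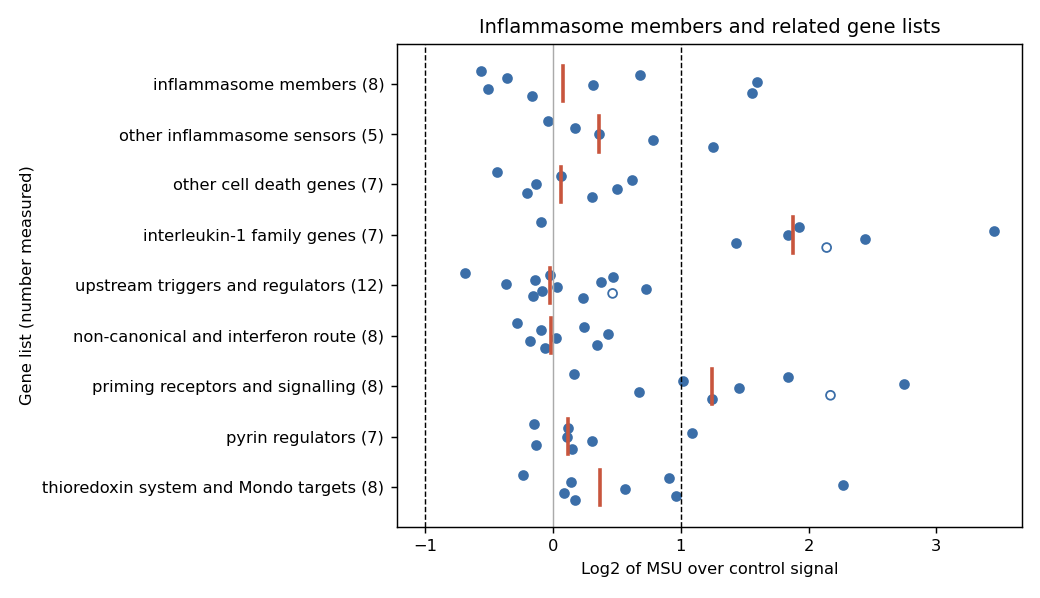
Log2 ratio of the MSU signal to the control signal (x axis) of measured genes of the inflammasome list and 8 related lists (y axis, number measured in parentheses), 1 array per pool. Filled symbols are folds and open symbols bounds, with medians of the folds as red bars and 2-fold as dashed lines. The interleukin-1 family and the priming genes lie mostly right of 2-fold, while the triggers and the non-canonical route centre near 0.

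Over the 8 related lists, 62 of 77 genes were measured, of which 15 (24.2%) reached 2-fold higher and 0 reached 2-fold lower, beside 3.70% and 4.29% of all genes. The lists were drawn up with earlier results of these data known. Among the 27 of these genes with at least 2 probe sets above the floors, 7 had ratios on both sides of 1 (Brcc3, Ctsb, Gbp2, Irak1, Mlx, Pkn2 and Ywhae), and 4 had probe sets both past and short of 2-fold higher (Pstpip2, Tlr4, Txnrd1 and Ywhag), so the counts in these lists depend in part on taking the brightest probe set.

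Markers of neutrophils, fat and muscle moved between the pools as well. Their counts stand beside 3.70% of all genes past 2-fold higher and 4.29% past 2-fold lower. Fewer cells of a type and less RNA per cell cannot be told apart in whole membranes, and this holds for every value given here. Of 12 measured neutrophil markers, 11 reached 2-fold higher and their summed signal went from 3324 to 26436, with Stfa2l1 at 13.6-fold, S100a9 at 12.1-fold and S100a8 at 10.6-fold, while Ltf was 1.45-fold lower and Camp was below both floors. The 5 pan-leukocyte markers were 1.44- to 2.24-fold higher, with Ptprc at 2.04-fold. Resident macrophage markers were split: of 14 measured, 2 reached 2-fold lower (Trem2 5.15-fold and Folr2 2.05-fold), Cd163 was 1.94-fold and Csf1r 1.14-fold higher, and their summed signal was 37028 and 37595. Of 6 monocyte markers measured, 2 reached 2-fold higher (Chil3 3.40-fold, F10 at least 4.89-fold), while Vcan was 1.69-fold and Fn1 1.20-fold higher. The 7 fibroblast markers, above the floor in both pools, had a median log2 ratio of 0.22. Of 8 measured adipocyte markers 7 reached 2-fold lower, among them Thrsp (at least 16.6-fold), Adipoq (7.36-fold), Scd1 (5.04-fold) and Fabp4 (3.97-fold), and of 10 skeletal muscle markers 5, among them Tnni2 (5.13-fold), Tnnt3 (4.99-fold) and Myh2 (4.95-fold), with Acta1 1.15-fold higher. The part of these differences in the inflammasome ratios was not tested. The log2 ratios of the neutrophil markers with a fold ran from -0.54 (Ltf) to 3.77 (Stfa2l1), with a median of 2.79. Nlrp3 and Mefv lay below that median and just below Mmp9 at 1.62, the lowest of these markers after Ltf. All other members with a fold lay below Mmp9, and all but Casp1 above Ltf. Most genes share the latter position: 82.9% of genes with a fold lay at or above Pycard. Casp1 and Pycard had lower signals, each on 1 probe set. The pan-leukocyte markers had higher signals, and the resident macrophage markers went both ways. How these values relate was not tested.

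**Figure D3:**
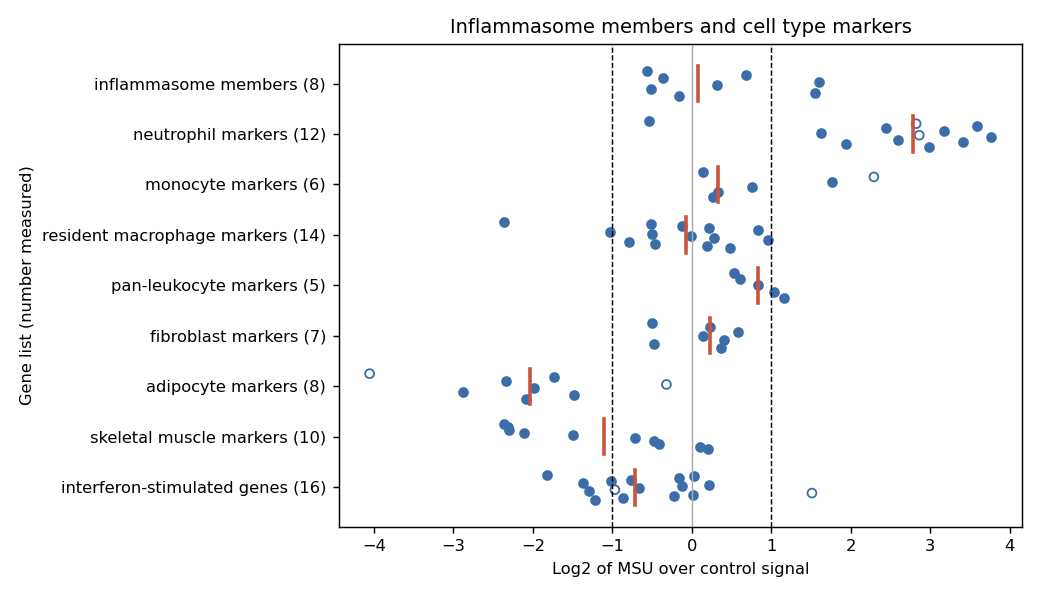
Log2 ratio of the MSU signal to the control signal (x axis) of measured genes of the inflammasome list, 7 lists of cell type markers and the interferon-stimulated genes (y axis, number measured in parentheses), 1 array per pool. Filled symbols are folds and open symbols bounds, with medians of the folds as red bars and 2-fold as dashed lines. Nlrp3 and Mefv lie above the pan-leukocyte markers and below all neutrophil markers shown except Ltf, and the other 6 members lie within 2-fold.

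RNA integrity was alike, with 3′/5′ signal ratios of 0.745 and 0.741 for Gapdh. Scaling decided where 0 lay. The 18 hybridization spike-in probe sets, RNA added in equal amount before hybridization, were all brighter with the MSU pool (median 1.37-fold). Scaling on them shifted every log2 ratio by -0.46, and with it the median of all genes, which became -0.51. Casp1 was then past 2-fold lower at -1.02, Pycard was at -0.97, and Nlrp3 and Mefv remained at least 2-fold higher at 1.10 and 1.14. Of all genes measured, 15.8% were then at least 2-fold lower and 1.77% at least 2-fold higher. Of all genes past 2-fold, 46.4% were higher as reported and 10.1% under this scaling. Differences between members were the same under it.

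**Figure D4:**
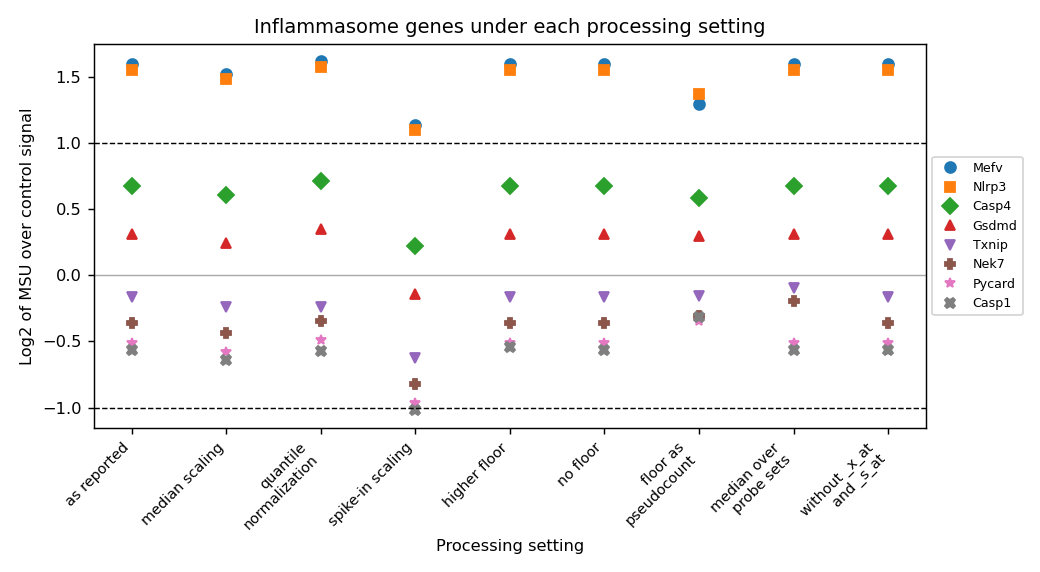
Log2 of MSU over control signal (y axis) of the 8 inflammasome members with a fold under each processing setting (x axis), 1 array per pool, with 1 symbol per gene and dashed lines at 2-fold. Nlrp3 and Mefv stay above 2-fold in each setting, and under spike-in scaling all members lie lower, with Gsdmd at -0.14 and Casp1 at -1.02.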

How the data were processed

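The arrays (Affymetrix Mo430_2) measured pooled membrane RNA of 3 mice per group. The authors deposited 1 linear signal intensity per probe set and array. Their processing notes name MAS5, without a version in the sources used here, and each array had been scaled as a whole, so every ratio depends on that scaling. Values were used as deposited. The 64 Affymetrix control probe sets were left out of gene values. In the platform annotation 34958 probe sets have 1 gene, 932 have several and 9211 are not listed. Entrez identifiers led to current RefSeq symbols (GRCm38.p6), and 18193 genes had a probe set.

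The floor, folds, bounds and representative probe sets were defined as in the report. A bound sets the signal above the floor against the floor of the other array. Without replicates no p-value was computed, and the number of arrays limits the precision. The members and gene lists were chosen with earlier results of these data known. The text names every member, all genes of short lists and, in longer ones, those with the largest ratios and highest signals. Casp12, Gsdme, P2rx7, Ltf, Camp, Ptprc, Mmp9, genes below the floors and genes whose probe sets disagreed were named in addition after their values had been seen. Alternatives were other array scalings, floors, a pseudocount, probe set rules and a size of 3-fold. The gene step was tested on simulated data. Changes were placed there only in genes brighter than most members, so that test does not cover signals as dim as theirs. Promoter windows are RefSeq's (GRCm38.p6), matched by symbol for 9 of 10 members. Python 3.11.15, pandas 2.3.3 and numpy 2.4.6 were used.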

Additional observations from a re-analysis of the deposited data

How the results depend on the processing

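Nlrp3 and Mefv were at least 2-fold higher in each of the 8 alternatives that changed the scaling, the floor, the pseudocount or the probe set rule. Both have a single probe set above the floors, so the other floors and probe set rules could not change their values. Only the scalings and the pseudocount could. Scaling on the spike-ins moved the log2 ratios by more than the SD between probe sets. They became 1.10 for Nlrp3, 1.14 for Mefv, 0.22 for Casp4, -0.14 for Gsdmd, -0.62 for Txnip, -0.82 for Nek7, -0.97 for Pycard and -1.02 for Casp1. The member median became -0.38, and 1 member was at least 2-fold lower, beside 15.8% of all genes measured. These shifts follow from subtracting the same amount everywhere. At a size of 3-fold, 1 member (Mefv) was higher. Aim2, below both floors, had a log2 ratio of 1.64 with no floor and 0.36 with the floors added as a pseudocount. Of 91 values under alternatives, 80 moved by less than that SD or, for counts, by no more than 1.5 times, and 11 moved further. Some of the 80 could not move, because the alternative did not touch the probe set concerned. Over all genes, 413 were at least 2-fold higher and 478 lower as reported, against 200 and 1787 with spike-in scaling, 1623 and 1724 with no floor, 330 and 217 with the pseudocount, and 164 and 80 at 3-fold. No paired analysis was possible because each group has 1 array. Signals near the floor limit Casp1, whose MSU signal was 1.56 times the floor, the dimmest Nek7 probe set and Naip2.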
